A study of Homo sapiens with 18 samples.

Results

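The genes described here encode the respiratory chain and the mitochondrial part of ATP synthase: the 13 protein genes of the mitochondrial genome and 25 nuclear genes of complexes I to IV, 38 of the 57773 genes in the deposited table. The 13 mitochondrial genes were taken whole, and the 25 nuclear genes are a fixed selection of subunits. They were measured in 18 polyA RNA-seq libraries of RPE1, an immortalised human retinal pigment epithelial cell line, with 3 libraries (A, B and C) for each of 6 clones. The tetraploid clones 4N-1, 4N-2 and 4N-3 are each set against a diploid clone, 2N-1, 2N-2 and 2N-3, from the same plates. All 6 clones, the diploid ones included, descend from cells that had been given 2.5 uM ZM447439, an inhibitor of Aurora B kinase, for 72 h and had then regrown for several weeks. Each clone grew from 1 cell whose DNA content was read by flow cytometry, and 4N-2 and 2N-2 had also been stained with Hoechst 33342 before they were sub-cloned. A ploidy state is therefore represented by 3 clones. The labels do not say whether libraries A, B and C came from separate cultures, so that p-values within a pair measure the spread between these libraries, which may be technical.

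Oxidative phosphorylation passes electrons from NADH through complex I (NADH dehydrogenase), or from succinate through complex II, to complex III (cytochrome bc1) and complex IV (cytochrome c oxidase), and the proton gradient made on the way drives ATP synthase, complex V. Complex II is encoded by nuclear genes alone, while the other complexes combine subunits from both genomes. The mitochondrial genome is copied and transcribed apart from the nucleus, as long transcripts of both strands that are cut at tRNA genes and other junctions, so that levels of single mitochondrial mRNAs depend on processing and decay as well as on transcription. In cells whose nuclear genome has doubled, the share of mitochondrial mRNA among all reads gives the proportion of mitochondrial to nuclear RNA. It does not give the number of copies of either genome.

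The libraries held 37.2 to 54.4 M reads in genes (M, 1e6), and 30422 to 32408 genes had any. Of 13 markers of retinal pigment epithelium 8 were under 0.1 RPKM in all libraries, and 3 averaged 1 RPKM or more; of 11 matched markers of other cell types 9 were under 0.1 RPKM, and 2, COL1A1 and CD68, averaged 1 RPKM or more. COL1A1 rose by 1.55 ± 0.17 in pair 1 and fell by 0.71 ± 0.17 in pair 2, CD68 fell by 0.71 ± 0.09 in pair 1 and rose by 1.46 ± 0.09 in pair 2 (log2; limma), and neither passed in pair 3. The summed level of the 11 was 18.1 to 19.3 RPKM in 4N-1 and 18.6 to 22.5 in 2N-1, 51.3 to 57.8 in 4N-2 and 20.8 to 23.2 in 2N-2, and 20.8 to 23.2 in 4N-3 and 21.0 to 24.5 in 2N-3. For the 13 retinal markers the sum was 115.6 to 121 RPKM in 4N-1 and 73.5 to 75.8 in 2N-1. It was 98.1 to 105.1 in 4N-2 and 74.7 to 80.8 in 2N-2, and 82.57 to 85.95 in 4N-3 and 78.5 to 132.9 in 2N-3. The 3 tested retinal markers changed by -0.30 to 0.72 in pair 1, -0.66 to 0.42 in pair 2 and -0.22 to -0.01 in pair 3 (log2). The part of either list in the results below was not tested. Library A of 2N-3 stood apart from its clone. The 24 tested nuclear genes of the chain were higher there than in the mean of libraries B and C by a median of 0.75 on the log2 scale, with 23 higher and 1 lower, against a median of 0.15 over all 9704 tested genes. Library C of 4N-3 also stood apart over all genes, though its 24 nuclear members had a median of -0.03 against libraries A and B. Library A of 4N-2 and library C of 2N-1 had all 13 mitochondrial genes above their sister libraries, by medians of 0.50 and 0.55. Counts of genes called in a pair are given with and without library A of 2N-3 and library C of 4N-3.

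The share of mitochondrial mRNA did not follow ploidy. The 13 genes took 4.29%, 4.53% and 4.00% of the reads in libraries A, B and C of 4N-1, against 4.04%, 3.83% and 5.33% in 2N-1. The share was 6.05%, 4.52% and 4.43% in 4N-2, against 4.55%, 4.53% and 4.65% in 2N-2. It was 4.39%, 4.40% and 4.79% in 4N-3, against 4.31%, 4.62% and 4.69% in 2N-3. The tetraploid and diploid libraries overlapped in each of the 3 pairs. The means were 4.27 ± 0.262% in 4N-1 and 4.40 ± 0.814% in 2N-1, 5.00 ± 0.912% in 4N-2 and 4.58 ± 0.0664% in 2N-2, and 4.53 ± 0.229% in 4N-3 and 4.54 ± 0.201% in 2N-3 (SD, n = 3 each), or log2 ratios of -0.04, 0.13 and -0.005. The highest library of 4N-2 and the highest of 2N-1 decide the sign in their pairs: without library A of 4N-2 the log2 ratio of pair 2 was -0.03, and without library C of 2N-1 that of pair 1 was 0.12. No test was made of the share, which is a sum over members. In libraries of whole cultures, a change in the number of cells of a kind and a change in RNA per cell cannot be told apart, and a share of reads does not give RNA per cell.

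The 25 nuclear genes together took far fewer reads than the 13 mitochondrial ones. Their share averaged 0.194 ± 0.0041% in 4N-1 and 0.205 ± 0.0068% in 2N-1, and 0.212 ± 0.0132% in 4N-2 and 0.208 ± 0.0023% in 2N-2 (SD, n = 3 each). In pair 3 it was 0.196%, 0.200% and 0.200% in 4N-3, against 0.323%, 0.208% and 0.208% in 2N-3; these groups did not overlap, and library A of 2N-3 was far above libraries B and C. The mitochondrial genes had 22.1 ± 1.76 reads for each read of the 25 nuclear genes in 4N-1 and 21.6 ± 4.70 in 2N-1, 23.8 ± 5.93 in 4N-2 and 22.0 ± 0.489 in 2N-2, and 22.8 ± 1.02 in 4N-3 and 19.4 ± 5.22 in 2N-3. These ratios overlapped in every pair. In 2N-3 the ratio was 13.3 in library A and 22.2 and 22.5 in libraries B and C.

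**Figure D1:**
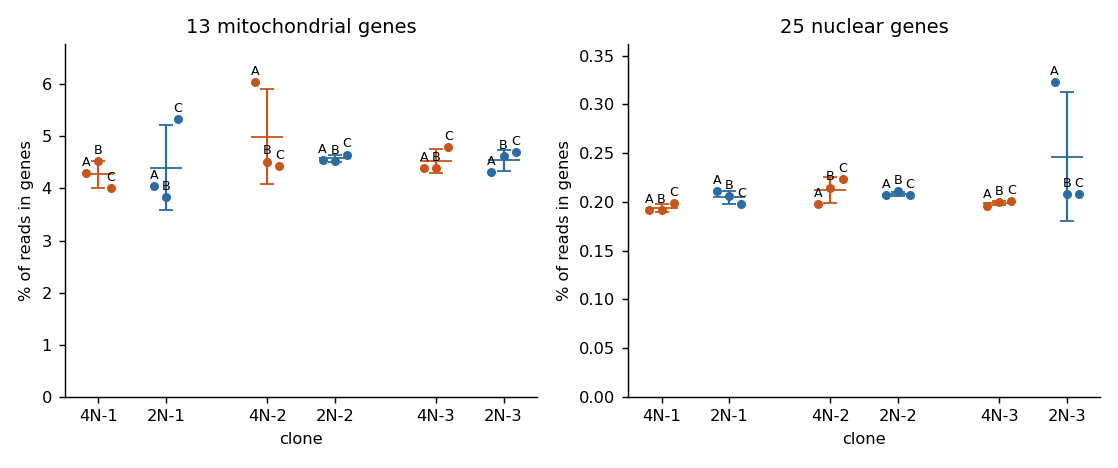
Share of the reads in genes taken by the 13 mitochondrial genes (left, %) and by the 25 nuclear genes (right, %) in every library; points are libraries A, B and C, the bar is the mean and the whiskers 1 SD (n = 3). Tetraploid clones (orange) stand left of their diploid clones (blue); the mitochondrial shares overlap in every pair, and library A of 2N-3 stands alone at 0.323% on the right.

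Among the mitochondrial mRNAs the levels, as reads per kilobase of gene and per 1e6 reads (RPKM, which can be compared between these intron-free genes), ran over more than an order of magnitude. MT-ATP6, a subunit of the proton channel of ATP synthase, had clone means of 6570 to 11062 RPKM. MT-CO1, the catalytic subunit of complex IV that carries its haem centres, had 3604 to 8036. Its partners MT-CO2 and MT-CO3 had 4625 to 6638 and 3898 to 5789. Of the complex I subunits MT-ND4 (5296 to 7230) and MT-ND4L (3179 to 5338), which share 1 transcript, were high; MT-ND1 (1733 to 5975), MT-ND2 (1682 to 7828), MT-ND3 (1721 to 2716) and MT-ND5 (859 to 1892) were lower in most clones. MT-ATP8, the other ATP synthase subunit, had 3982 to 6887, and MT-CYB, cytochrome b and the only complex III subunit of this genome, 1475 to 2718. MT-ND6, the one protein gene of the light strand, was lowest with 216 to 315 RPKM. The nuclear genes, put on a comparable scale of reads per kilobase of annotated exon and per 1e6 reads, lay well below: the lowest clone mean was 4.15 for SDHC, and the highest outside 2N-3 was 96.3 for NDUFB8 in 2N-2. For SDHC and NDUFB8 the reads rest on a searched gene length. The search took the shortest length that gave whole reads. The true length may be a multiple of it, which would make these values too low. In 2N-3 COX4I1 had 188.1 in library A, and 91.0 and 89.6 in libraries B and C.

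**Figure D2:**
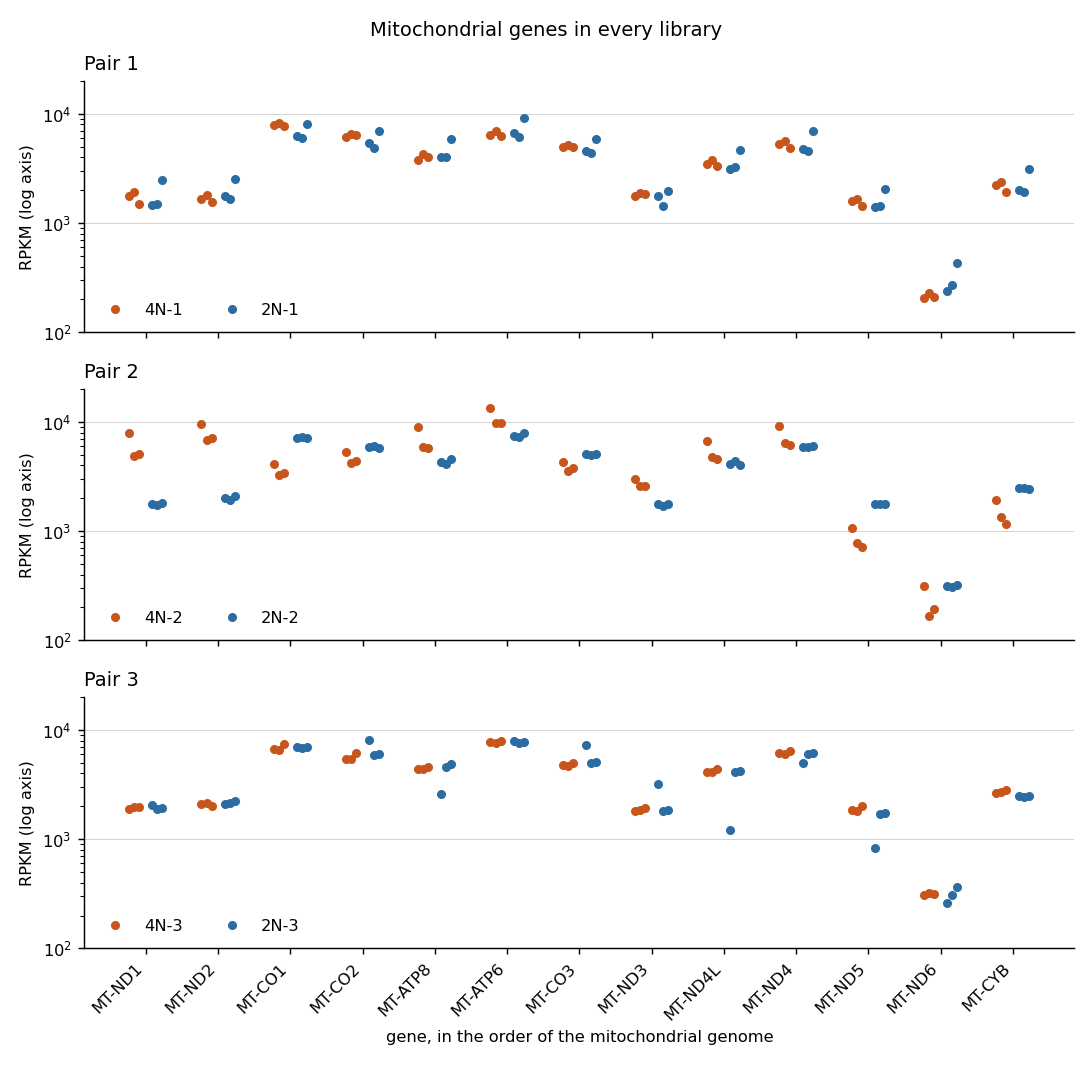
RPKM (log axis) of the 13 mitochondrial genes in every library, in genome order, with tetraploid libraries (orange) left of the diploid ones (blue) in each pair. In pair 2 the 3 libraries of 4N-2 lie above those of 2N-2 for MT-ND1 and MT-ND2 and below them for MT-CO1, MT-ND5 and MT-CYB, while in pair 3 library A of 2N-3 lies apart for MT-ND4L, MT-ND5 and MT-ATP8.

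Mitochondrial mRNAs were called as changed in 1 pair. In pair 2, 5 of the 13 mitochondrial genes rose and 4 fell in 4N-2 (limma, adjusted p under 0.05 at any fold), beside 21.5% of all tested genes that rose and 16.0% that fell in that pair. The complex I genes MT-ND1 and MT-ND2 rose by over 2-fold, where 2.46% of all genes did, and MT-CO1 and MT-ND5 fell by over 2-fold, where 2.38% did. Over the 13 genes the median change was 0.25, against 0.04 over all tested genes. In pairs 1 and 3 no mitochondrial gene passed.

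MT-ND2, a subunit of the proton-pumping arm of complex I, had 9503, 6848 and 7134 RPKM in libraries A, B and C of 4N-2, against 2004, 1936 and 2086 in 2N-2. Every 4N-2 library was above every 2N-2 library, with a log2 change of 1.95 ± 0.14 (SE; limma, adjusted p = 7.63e-08). MT-ND1, which lies next to the ubiquinone site of the same complex, had 7982, 4893 and 5051 RPKM in 4N-2, against 1788, 1718 and 1804 in 2N-2, again without overlap. Its log2 change was 1.72 ± 0.20 (adjusted p = 7.89e-06). Library A of 4N-2 was the highest of its clone for both genes.

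MT-CO1 had 4079, 3295 and 3439 RPKM in 4N-2, against 7190, 7238 and 7191 in 2N-2; all 4N-2 libraries were below all 2N-2 libraries. It fell by 1.01 ± 0.10 on the log2 scale (SE; limma, adjusted p = 2.62e-06). MT-ND5, another subunit of the proton-pumping arm of complex I, had 1067, 787 and 722 RPKM in 4N-2, against 1779, 1780 and 1754 in 2N-2. It fell by 1.06 ± 0.24 (adjusted p = 0.00236). MT-CYB had 1928, 1337 and 1159 RPKM in 4N-2, against 2465, 2487 and 2441 in 2N-2, with a log2 change of -0.77 ± 0.18 (adjusted p = 0.00295). Both groups were again separate for MT-ND5 and for MT-CYB, although library A of 4N-2 was the highest of its clone for all of these genes.

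For MT-ND6 the call depended on a library and on the method. The gene had 314, 168 and 195 RPKM in 4N-2, against 318, 309 and 318 in 2N-2. All 4N-2 libraries were lower, but library A only just, and the log2 change of -0.53 ± 0.22 did not pass (limma, adjusted p = 0.0719). Without library A of 4N-2 it was -0.80 and passed (adjusted p = 0.00712), and on whole reads it was -0.54 ± 0.20 and passed (limma-voom, adjusted p = 0.0432). In pair 1 MT-ND6 had 205, 231 and 213 RPKM in 4N-1, against 239, 272 and 432 in 2N-1, separate but at a log2 change of -0.49 ± 0.22 that did not pass (adjusted p = 0.135). In pair 3 the values of 307, 324 and 315 RPKM in 4N-3, against 258, 307 and 364 in 2N-3, overlapped.

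The remaining changes in pair 2 were smaller. MT-ATP6 rose by 0.53 ± 0.14 (SE; limma, adjusted p = 0.00680), MT-ATP8 by 0.64 ± 0.22 (adjusted p = 0.0318) and MT-ND3 by 0.63 ± 0.17 (adjusted p = 0.00995), and MT-CO3 fell by 0.38 ± 0.13 (adjusted p = 0.0366). MT-ATP8 no longer passed without library A of 4N-2, at 0.43, nor MT-CO3 without library B of 4N-2, at -0.32. MT-CO2 (-0.36 ± 0.14, adjusted p = 0.0515), MT-ND4 (0.25 ± 0.17) and MT-ND4L (0.32 ± 0.35) did not pass. MT-CO2 did pass in limma-voom on whole reads (adjusted p = 0.0371), with scaling on the nuclear median (0.0207), without library A of 4N-2 (0.0232), and without library A of 2N-3 and library C of 4N-3 (0.0138). MT-ATP8 and MT-ATP6 are read from 1 mRNA and share 46 bases, where a short read cannot be given to either gene. The MT-ATP8 gene (chrM:8366-8572, plus strand, GENCODE v29 on GRCh38) and the first 100 bases of MT-ATP6 (chrM:8527-8626) are shown with the shared stretch in capitals.
MT-ATP8: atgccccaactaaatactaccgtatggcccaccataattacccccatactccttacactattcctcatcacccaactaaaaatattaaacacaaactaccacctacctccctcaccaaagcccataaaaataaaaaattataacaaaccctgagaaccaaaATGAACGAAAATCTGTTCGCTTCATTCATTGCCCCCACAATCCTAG
MT-ATP6: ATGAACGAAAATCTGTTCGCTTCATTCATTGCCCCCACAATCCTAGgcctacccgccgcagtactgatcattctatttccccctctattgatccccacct

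Taken as a part of the mitochondrial mRNA pool, the shifts in 4N-2 were close to equal in its 3 libraries. MT-ND2 made up 16.0%, 16.0% and 16.6% of the reads of the 13 genes in libraries A, B and C of 4N-2, against 4.63%, 4.49% and 4.77% in 2N-2. MT-ND1 made up 12.3%, 10.5% and 10.8% in 4N-2, against 3.79%, 3.66% and 3.78% in 2N-2. MT-CO1 made up 10.2%, 11.4% and 11.8% in 4N-2, against 24.6%, 24.8% and 24.3% in 2N-2, where it was the largest part. MT-ND4 was the largest part in 4N-2, with 20.5%, 19.7% and 18.7%, against 18.2%, 18.0% and 18.3% in 2N-2. The levels of these genes thus moved apart within a pool whose share of all reads overlapped between the clones. Some parts of the pool were also separate in the other pairs, by smaller amounts. MT-CO1 made up 28.3%, 27.7% and 28.8% in 4N-1, against 25.1%, 25.1% and 23.3% in 2N-1. MT-ATP6 made up 10.1%, 10.2% and 10.3% in 4N-1, against 11.6%, 11.3% and 11.7% in 2N-1. In pair 3 MT-CYB made up 6.80%, 6.91% and 6.68% in 4N-3, against 6.29%, 6.25% and 6.13% in 2N-3. No test was made of these parts.

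In pair 1 the mitochondrial genes had a median change of -0.04, and MT-CO1 was the nearest to a rise. It had 7995, 8294 and 7818 RPKM in 4N-1, against 6309, 5987 and 8098 in 2N-1, and its log2 change of 0.25 ± 0.10 did not pass (limma, adjusted p = 0.102). Library C of 2N-1 alone reached the levels of 4N-1, and without it the change was 0.39 ± 0.09 and passed (adjusted p = 0.00948). MT-CYB overlapped in this pair, with 2218, 2389 and 1932 RPKM in 4N-1, against 2019, 1940 and 3109 in 2N-1. In pair 1 limma called 0 mitochondrial genes, beside 10.6% of all genes risen and 10.3% fallen; at an unadjusted p under 0.05, 1 was higher and 1 lower, and limma-voom on whole reads also called 0.

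In pair 3 limma called 0 mitochondrial genes, beside 1.99% of all genes risen and 1.41% fallen; none had an unadjusted p under 0.05, and limma-voom called 0, with 1 higher at an unadjusted p under 0.05. MT-CO1 had 6757, 6606 and 7478 RPKM in 4N-3, against 6949, 6903 and 7009 in 2N-3, and the groups overlapped. MT-CYB had 2671, 2690 and 2793 RPKM in 4N-3, against 2470, 2457 and 2470 in 2N-3; all 4N-3 libraries were higher, by a log2 change of 0.14 ± 0.18 that did not pass (adjusted p = 0.630). The wide errors of MT-ND4L (0.62 ± 0.35) and MT-ND5 (0.49 ± 0.24) came with library A of 2N-3. MT-ND4L had 1201 RPKM there, and 4087 and 4250 in libraries B and C, and MT-ND5 had 829, against 1704 and 1725. Without this library and library C of 4N-3 the changes were -0.01 for MT-ND4L and 0.09 for MT-ND5.

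**Figure D3:**
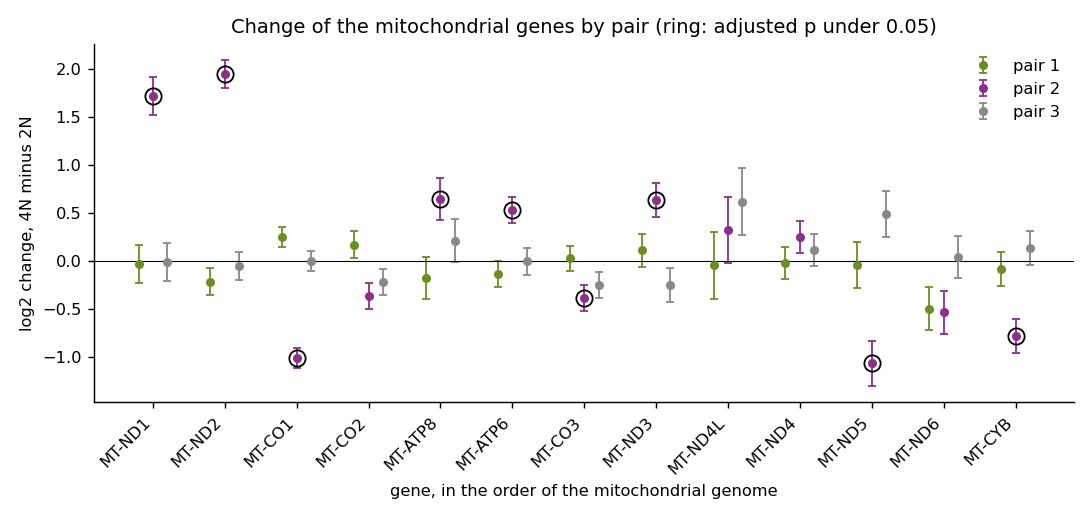
Log2 change (4N minus 2N, from log2(RPKM + 0.5)) of the 13 mitochondrial genes in genome order, 1 point per pair with its SE; a ring marks an adjusted p under 0.05 (limma). All 9 rings are in pair 2, between 1.95 for MT-ND2 and -1.06 for MT-ND5.

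The sizes of 4 of these changes differed between the pairs (moderated F test of the difference, adjusted p under 0.05, with changes that lie 2-fold or more apart), beside 10.5% of all genes. MT-ND2 changed by -0.21 in pair 1, 1.95 in pair 2 and -0.05 in pair 3 (limma, adjusted p = 2.47e-06), and MT-ND1 by -0.03, 1.72 and -0.01 (adjusted p = 0.000238). MT-CO1 changed by 0.25, -1.01 and -0.0035 (adjusted p = 3.11e-05), and MT-ND5 by -0.04, -1.06 and 0.49 (adjusted p = 0.00574). Pair 2 is also the pair that went through Hoechst staining and sub-cloning, and these cannot be told apart from the clone. Across the 3 pairs, with a clone as the unit, limma called 0 of the 37 tested members, with 0.0% of all genes risen and 0.0% fallen; 0 members had an unadjusted p under 0.05, and limma-voom on whole reads called 0. The largest mean difference of tetraploid and diploid clones was 0.56 for MT-ND2, with an SE of 0.42.

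The mitochondrial genes have near-identical copies in the nuclear genome, and reads had been assigned to both. Of 386 annotated nuclear pseudogenes of these genes, 18 averaged 1 RPKM or more, and 7 of these lie together on chromosome 1 (chr1:629062-634922, GENCODE v29 on GRCh38). All annotated copies took 0.813% to 1.17% of the reads in genes, beside the 3.83% to 6.05% of the genes themselves. MTND2P28 aligned with 98.4% identity over 1042 bases of MT-ND2, with 17 mismatches, and MTND1P23 with 99.1% over 352 bases of MT-ND1, with 3 mismatches. MTCO1P12 matched MT-CO1 at 98.7% over 1542 bases. A stretch of 120 bases of MT-ND2 (chrM:4650-4769) and of its copy (chr1:629820-629939, plus strand) is shown with the bases that differ in capitals, 2 in all.
MT-ND2: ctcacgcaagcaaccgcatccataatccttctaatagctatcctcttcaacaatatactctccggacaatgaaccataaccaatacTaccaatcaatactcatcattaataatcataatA
MTND2P28: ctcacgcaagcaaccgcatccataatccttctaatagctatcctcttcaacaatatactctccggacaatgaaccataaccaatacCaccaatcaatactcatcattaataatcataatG

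In pair 2 the copies of MT-ND2, MT-ND1 and MT-CO1 on chromosome 1 moved in the direction of those genes. MTND2P28 had 2380, 1696 and 1742 RPKM in 4N-2, against 504, 487 and 522 in 2N-2, and rose by 1.92 ± 0.16 on the log2 scale (SE; limma, adjusted p = 2.99e-07). MTND1P23 had 2974, 1991 and 2130 RPKM in 4N-2, against 671, 666 and 706 in 2N-2, and rose by 1.77 ± 0.24 (adjusted p = 3.24e-05). MTCO1P12 had 1338, 1110 and 1156 RPKM in 4N-2, against 2453, 2484 and 2444 in 2N-2, and fell by 1.04 ± 0.10 (adjusted p = 1.19e-06). MTND6P4, a copy of MT-ND6, fell by 0.51 ± 0.17 in pair 1 (adjusted p = 0.0401) and by 0.61 ± 0.17 in pair 2 (adjusted p = 0.00883), where MT-ND6 itself did not pass. Which genome these reads came from was not tested. With the reads of a gene and its copy added, the log2 ratio of pair 2 was 1.96 for MT-ND2, 1.76 for MT-ND1 and -1.01 for MT-CO1, so that these values did not depend on the assignment between them.

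**Figure D4:**
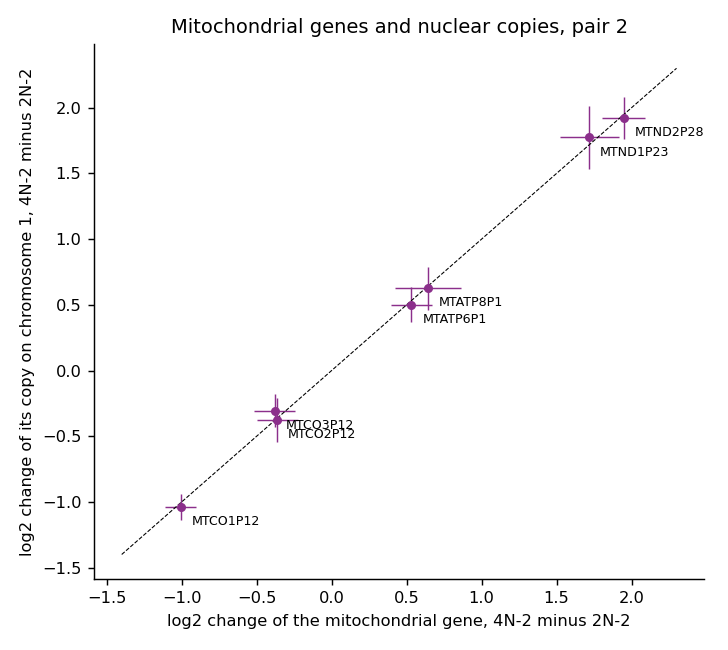
Log2 change, 4N-2 minus 2N-2, of 7 mitochondrial genes (x axis) and of the chromosome 1 copy of each (y axis), with SE on both axes; the dashed line marks equal change. The points lie along the line, from MTCO1P12 at -1.04 to MTND2P28 at 1.92.

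The nuclear genes of the chain moved little. In pair 2, 1 of the 24 tested rose and 1 fell (limma), beside the 21.5% and 16.0% of all genes given above, and no change of a nuclear member reached 2-fold in any pair. In pairs 1 and 3 limma called 0. At an unadjusted p under 0.05, 1 nuclear member was higher and 2 lower in pair 1, and 0 higher and 5 lower in pair 3; limma-voom on whole reads called 0 in both. The median change of the 24 genes was -0.04 in pair 1, 0.09 in pair 2 and -0.24 in pair 3, against -0.01, 0.04 and -0.02 over all tested genes. NDUFA10, a complex I subunit in a gene of 132953 bases, fell below the minimum of 1 RPKM with 0.496 to 0.595 RPKM; on whole reads its log2 change was 0.09, -0.13 and -0.09 in the 3 pairs, none past the test (limma-voom, adjusted p = 0.410, 0.141 and 0.425).

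Both calls were in complex II, the succinate dehydrogenase that also serves the citric acid cycle. SDHA, its flavoprotein, had 2.66, 2.62 and 2.82 RPKM in 4N-2, against 2.16, 2.22 and 2.12 in 2N-2, without overlap, and rose by 0.26 ± 0.06 on the log2 scale (SE; limma, adjusted p = 0.00396). On whole reads SDHA rose by 0.32 ± 0.08 (limma-voom, adjusted p = 0.00408). RPKM of nuclear genes is low because the deposited values divide by the whole gene, introns included. SDHA has copies that share reads: SDHAP1, SDHAP2 and SDHAP3 averaged 0.805, 0.893 and 0.454 RPKM in 4N-2 and 0.860, 1.02 and 0.438 in 2N-2, and none of them passed in that pair (limma-voom). In pair 1 SDHAP3 fell by 0.83 ± 0.10 (limma-voom, adjusted p = 1.13e-05). In pair 1 SDHA had 1.86, 1.92 and 1.92 RPKM in 4N-1, against 2.12, 2.17 and 2.29 in 2N-1, separate in the other direction, with a log2 change of -0.17 ± 0.06 that did not pass (limma, adjusted p = 0.0775). In pair 3 it had 2.19, 2.29 and 2.19 RPKM in 4N-3, against 2.75, 2.23 and 2.22 in 2N-3. The 21 tested neighbours of SDHA had median changes of -0.17 in pair 1, 0.14 in pair 2 and 0.04 in pair 3. All tested genes of chromosome 5 had medians of 0.03, 0.08 and 0.03. The part of this in the changes of SDHA was not tested.

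SDHB, the iron-sulphur subunit, had 1.37, 1.36 and 1.47 RPKM in 4N-2, against 1.82, 1.84 and 1.83 in 2N-2, without overlap. It fell by 0.29 ± 0.09 on the log2 scale (SE; limma, adjusted p = 0.0221), a call that was lost when any library of the pair but library C of 4N-2 was left out. On whole reads SDHB fell by 0.39 ± 0.11 in pair 2 (limma-voom, adjusted p = 0.0109). In pair 1 SDHB had 1.65, 1.69 and 1.85 RPKM in 4N-1, against 1.76, 1.71 and 1.93 in 2N-1, and the groups overlapped. In pair 3 it had 1.81, 1.90 and 1.77 RPKM in 4N-3, against 2.72, 1.84 and 1.88 in 2N-3. The genes near SDHB were lower too: the 40 tested neighbours had a median change of -0.14 in pair 2, and all tested genes of chromosome 1 one of -0.18. The part of this in the change of SDHB was not tested. SDHC (-0.21 ± 0.08, adjusted p = 0.0512) and SDHD (0.19 ± 0.08, adjusted p = 0.0892), the 2 membrane anchors, did not pass in pair 2 in the main test (limma). SDHC did pass in limma-voom on whole reads (-0.29 ± 0.10, adjusted p = 0.0332). In limma it passed with scaling on the nuclear median (0.00542), a constant of 0.1 (0.047) and without library C of 4N-2 (0.0379). SDHD passed in limma without library A of 4N-2 (0.0362). Both passed without library A of 2N-3 and library C of 4N-3 (0.00380 and 0.0327). SDHC too lies on chromosome 1, and its 40 tested neighbours had a median change of -0.11 in pair 2. The part of this in the change of SDHC was not tested.

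NRF1 and the ETS factor GABP are known to act on many nuclear respiratory genes. The letters GCGCATGC of the NRF1 core, on either strand, stood in 3 of the 19 nuclear members with a promoter in the RefSeq table (GRCh38.p14, from 250 bases before to 50 after the gene start), or 15.8%, beside 3.05% of all 35116 promoters. The ETS letters CCGGAAG stood in 7 of the 19, or 36.8%, beside 10.3% of all. Members were counted by the first promoter listed for each gene and all promoters by every entry, so these shares differ in unit. The promoters of the 2 genes called in pair 2 are shown, SDHA (chr5:218070-218369, plus strand) with neither motif in the window and SDHB (chr1:17053983-17054282, minus strand) with both, in capitals. The motifs do not overlap each other, and a match is a description of the sequence only.
SDHA: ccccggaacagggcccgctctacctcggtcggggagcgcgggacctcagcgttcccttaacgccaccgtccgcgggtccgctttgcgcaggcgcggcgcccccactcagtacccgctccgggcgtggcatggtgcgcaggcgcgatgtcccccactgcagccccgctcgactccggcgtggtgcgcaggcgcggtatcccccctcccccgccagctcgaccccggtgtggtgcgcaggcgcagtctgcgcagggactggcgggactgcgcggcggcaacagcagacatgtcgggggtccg
SDHB: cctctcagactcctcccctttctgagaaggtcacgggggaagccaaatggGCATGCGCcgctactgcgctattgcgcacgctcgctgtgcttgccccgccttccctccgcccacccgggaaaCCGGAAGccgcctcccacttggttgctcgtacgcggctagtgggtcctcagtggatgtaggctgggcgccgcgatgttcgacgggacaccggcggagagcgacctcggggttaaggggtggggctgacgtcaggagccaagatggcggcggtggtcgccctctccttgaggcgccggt

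By complex, the 8 tested nuclear genes of complex I had median changes of -0.06 in pair 1, 0.05 in pair 2 and -0.24 in pair 3. The 6 of complex III had -0.05, 0.14 and -0.30, the 6 of complex IV 0.06, 0.11 and -0.34, and the 4 of complex II -0.04, -0.01 and -0.07. The lower values of pair 3 came with library A of 2N-3. UQCRQ, a small subunit of complex III, had 50.2, 53.0 and 50.5 RPKM in 4N-3, against 112.6, 51.1 and 50.04 in 2N-3. COX4I1, the regulatory subunit of complex IV, had 18.7, 18.2 and 18.8 RPKM in 4N-3, against 39.7, 19.2 and 18.9 in 2N-3, and COX5B 23.2, 24.4 and 24.5, against 56.1, 26.9 and 26.7. Apart from that library COX4I1 and UQCRQ were within the range of 4N-3 or close to it, while COX5B was above it.

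Leaving out library A of 2N-3 and library C of 4N-3 narrowed the spread that all clones share, and many small differences then passed. The median change of the nuclear genes in pair 3 became 0.02, with 0 called by limma, beside 12.2% of all genes risen and 5.48% fallen. In pair 2, 10 nuclear genes rose and 3 fell, beside 33.6% and 25.4% of all genes. COX5A (0.28 ± 0.05) and SDHA (0.26 ± 0.03) were the largest rises with NDUFV1 (0.26 ± 0.05), and SDHB (-0.29 ± 0.04), SDHC (-0.21 ± 0.05) and UQCRC1 (-0.16 ± 0.04), a core subunit of complex III, were the falls. In pair 1, 2 rose and 6 fell, beside 22.7% and 24.0% of all genes. NDUFA4, now counted to complex IV, rose by 0.39 ± 0.07 and SDHC by 0.17 ± 0.05, and the largest falls were CYC1 (cytochrome c1, -0.35 ± 0.05), UQCRC1 (-0.31 ± 0.04) and NDUFB10 (-0.25 ± 0.05). In pair 2 the 10 risen of 24 are a larger share than that of all genes and the 3 fallen a smaller one; in pair 1 the 2 risen are a smaller share and the 6 fallen a near equal one. For the mitochondrial genes 5 rose and 5 fell in pair 2, and 0 were called in pairs 1 and 3.

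**Figure D5:**
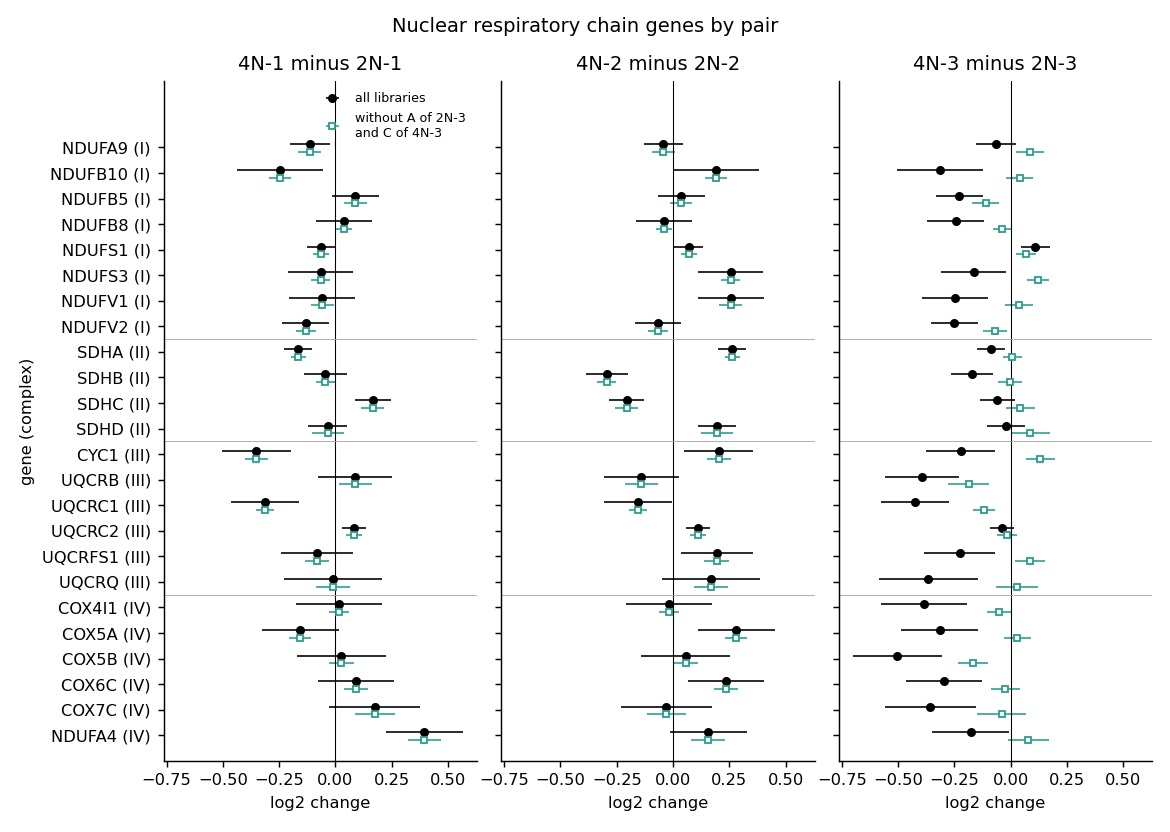
Log2 change (4N minus 2N) with SE of the 24 tested nuclear genes, grouped by complex, in the 3 pairs; black points use all libraries and open squares leave out library A of 2N-3 and library C of 4N-3. The points of pair 3 centre on -0.24 with all libraries and on 0.02 without the 2, and no change reaches 1.

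The other nuclear genes that the chain needs were counted in the same way, beside 10.6% of all genes risen and 10.3% fallen in pair 1, 21.5% and 16.0% in pair 2, and 1.99% and 1.41% in pair 3. Of 33 tested further subunits, 2 rose in pair 2 and 0 passed in pairs 1 and 3 (limma): CYCS, cytochrome c, by 0.54 ± 0.17 and NDUFA5 by 0.32 ± 0.06. Of 16 nuclear ATP synthase subunits 1 fell, ATP5PB, by 0.40 ± 0.11 in pair 2. Of 64 mitochondrial ribosomal proteins 13 (20.3%) rose and 3 (4.69%) fell in pair 2, with MRPL17 (0.57 ± 0.20) and MRPL39 (0.42 ± 0.10) the largest rises and MRPL37 (-0.43 ± 0.10) and MRPL9 (-0.41 ± 0.13) the largest falls, while in pair 1 MRPS6 fell by 0.32 ± 0.05 and MRPL49 by 0.21 ± 0.07 and none passed in pair 3. The median of these 64 genes was -0.16, 0.12 and -0.19 in the 3 pairs, and 0.09 in pair 3 without library A of 2N-3 and library C of 4N-3. Genes of these and the following lists were not set beside their chromosome neighbours. The part of regional shifts, such as the lower levels of chromosome 1 in pair 2, in their changes was not tested.

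Of 32 tested assembly factors 3 passed in pair 1 (1 higher and 2 lower), 8 in pair 2 (6 higher and 2 lower) and 1 in pair 3, which was lower. In pair 2 the risen were 18.8% and the fallen 6.25% of the list. SDHAF1, which helps to load iron-sulphur clusters into SDHB, fell by 0.79 ± 0.19 in pair 1 and by 0.86 ± 0.19 in pair 3 (limma, adjusted p = 0.00970 and 0.0243). Without library A of 2N-3 and library C of 4N-3 its fall in pair 3 was 0.65 ± 0.13 (limma, adjusted p = 0.00670). In pair 2 the change of SDHAF1 had the opposite sign. COA7 fell by 0.32 ± 0.11 in pair 1, where COA5 rose by 0.28 ± 0.07. In pair 2 NDUFAF3, a complex I assembly factor, rose by 0.62 ± 0.15 and BCS1L, which inserts the Rieske protein into complex III, by 0.48 ± 0.14, and COA6 fell by 0.42 ± 0.16 and COX18 by 0.17 ± 0.05.

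Of 21 tested genes for transcription of the mitochondrial genome and upkeep of its DNA, 4 fell in pair 1 and 6 rose and 1 fell in pair 2, with 0 in pair 3. The fallen were 19.0% of the list in pair 1, and the risen 28.6% and the fallen 4.76% in pair 2. TFAM, which packs mitochondrial DNA and starts its transcription, fell by 0.44 ± 0.13 in pair 1 (limma, adjusted p = 0.0237) and rose by 0.35 ± 0.13 in pair 2 (adjusted p = 0.0451). MGME1, a mitochondrial exonuclease, fell by 0.30 ± 0.09 in pair 1. In pair 2 FASTKD5, which is needed to process mitochondrial transcripts at junctions without tRNA, rose by 0.62 ± 0.06 (adjusted p = 1.64e-06) and MGME1 by 0.50 ± 0.09 (adjusted p = 0.000375), and LRPPRC, which stabilises mitochondrial mRNAs, fell by 0.23 ± 0.07 (adjusted p = 0.0187). Of 8 tested regulators of mitochondrial biogenesis MYC rose by 0.53 ± 0.14 in pair 1 and by 0.90 ± 0.14 in pair 2, and YY1 fell by 0.16 ± 0.05 in pair 2. None of these lists had a gene called across the 3 pairs.

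Without library A of 2N-3 and library C of 4N-3 more of these genes passed, as did more of all genes. Of the 33 further subunits limma then called 3 risen and 5 fallen in pair 1, 23 and 3 in pair 2, and 1 and 0 in pair 3. For the 16 ATP synthase subunits these counts were 1 risen and 2 fallen, 8 and 1, and 2 and 0, in the same order of pairs. The 64 ribosomal proteins had 1 risen and 36 fallen in pair 1, 31 and 8 in pair 2, and 6 and 1 in pair 3. For the 32 assembly factors the counts were 2 risen and 6 fallen, 15 and 2, and 1 and 2. The 21 genes of transcription and DNA upkeep had 1 risen and 10 fallen, 7 and 2, and 5 and 0, and the 8 regulators 1 and 3, 2 and 2, and 1 and 1. The shares of all genes under this setting were 22.7% risen and 24.0% fallen in pair 1, 33.6% and 25.4% in pair 2, and 12.2% and 5.48% in pair 3.

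The 2 ribosomal RNAs of the mitochondrial genome, which share the heavy strand's transcripts, rose in pair 1, where no mitochondrial mRNA passed. MT-RNR2, the large rRNA, had 1867, 1919 and 1852 RPKM in 4N-1, against 1113, 1063 and 1182 in 2N-1, without overlap, and rose by 0.75 ± 0.12 on the log2 scale (SE; limma, adjusted p = 0.000511). MT-RNR1, the small rRNA, rose by 0.75 ± 0.21 in the same pair (adjusted p = 0.0182). In pair 2 MT-RNR2 had 620, 544 and 605 RPKM in 4N-2, against 1073, 1110 and 1062 in 2N-2, and fell by 0.88 ± 0.12 (adjusted p = 3.67e-05). Neither rRNA passed in pair 3 with all libraries, while without library A of 2N-3 and library C of 4N-3 MT-RNR2 fell there by 0.30 ± 0.06 (adjusted p = 0.00797) and MT-RNR1 by 0.29 ± 0.08 (adjusted p = 0.0322). MT-RNR1 in pair 2 had a log2 change of -0.41 ± 0.21 that did not pass (adjusted p = 0.131), and it passed without those 2 libraries (adjusted p = 0.000207). As the libraries were made from polyA RNA, these values and those of MT-ND6 give the polyadenylated part of each RNA only. The use of strand in counting is not given in the sources used here, so that reads of MT-ND6 and other light-strand RNA cannot be told apart from antisense reads of the heavy strand.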

How the data were processed

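Libraries were stranded and made from polyA RNA, per the labels' protocols; CASAVA 1.8.2, TopHat2, edgeR and the build hg19 are named in the submitters' processing notes. The counter, annotation release and use of strand are not given in the sources used here. The authors deposited 1 table of RPKM values (reads per kilobase and per 1e6 reads). Low values were whole multiples of a step per gene, which gave whole reads for 100% of the 40853 genes above 0 (tolerance 0.01 reads). The length used was the gene's whole span for 31117 of these. For 9736 it was searched, as the shortest length that gave whole reads, so that the true one may be a multiple of it. Of the members 32 used the span, and 6 a searched length (NDUFA9, NDUFB8, NDUFV1, SDHC, SDHD and UQCRFS1). Reads per 1e6 used the library sizes implied by these steps.

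The main test was limma 3.58.1 (R 4.3.3) on log2(RPKM + 0.5), so that a fold change of a low gene is understated, for the 9704 genes that reached 1 RPKM in at least 3 libraries, with 1 mean per clone, a trend in the spread and two-sided p-values adjusted by Benjamini-Hochberg over all tested genes at 0.05. Across clones it was fitted to clone means with the pair as a block. Alternatives were a constant of 0.1, no minimum, limma-voom on whole reads (23399 genes that reached 10 reads in at least 3 libraries), scaling on the nuclear median, a replicate block, leaving out libraries, and other denominators of the share. The fit was also run on simulated data with the same spread setting for all genes and libraries and no outlying library. These data differ in that, so the run does not show how the fit performs on them. Copies were aligned with Biopython 1.88 to GENCODE v29 transcripts. No 2 libraries of a clone were alike within sampling noise: the lowest chi-square per gene was 1.70. The members and the lists were chosen with earlier results of these data known. All 13 mitochondrial genes are named, with every library for MT-CO1, MT-CYB, MT-ND6 and the largest nuclear rise and fall that passed in a pair; MT-ND1, MT-ND2, MT-ND5, UQCRQ, COX4I1 and COX5B were added after their values were seen. Of other lists up to 2 genes per direction and pair are named.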

Additional observations from a re-analysis of the deposited data

Results flagged for a closer look

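The 4N minus 2N change differed between the 3 pairs for 4 mitochondrial genes, by a test of the difference itself (limma, moderated F test): MT-ND2 (adjusted p = 2.47e-06), MT-CO1 (adjusted p = 3.11e-05), MT-ND1 (adjusted p = 0.000238) and MT-ND5 (adjusted p = 0.00574). MT-ND3 (adjusted p = 0.0305), MT-CYB (0.0222) and MT-ATP6 (0.0292) passed the same test with spans between pairs of 0.88, 0.91 and 0.66 on the log2 scale, under 2-fold. The nuclear members SDHA (adjusted p = 0.00323) and SDHC (0.0404) passed it too, with spans of 0.43 and 0.37. Of all tested genes 10.5% passed with a span of 2-fold or more.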

How the results depend on the processing

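Of 132 recomputed changes of the 11 members called in pair 2, 114 stayed past the threshold, 18 lost it and 0 turned sign; MT-ATP8 and MT-CO3 lost it most often (6 times each), then SDHB (5) and MT-ATP6 (1). With no minimum of RPKM 3 mitochondrial genes rose in pair 2. Scaling on the nuclear median gave 1 nuclear gene fallen in pair 1 and 2 in pair 2, and the constant of 0.1 and voom each gave 2 fallen in pair 2. Without library A of 2N-3 and library C of 4N-3 the nuclear counts were 2 risen and 6 fallen in pair 1, and 10 risen and 3 fallen in pair 2. Leaving out 1 library of a pair gave 0 to 1 mitochondrial genes risen in pair 1, 1 to 2 nuclear genes risen and 0 to 2 fallen in pair 2. The 4 mitochondrial genes fallen in pair 2 became 3 to 6 on leaving out 1 library, 6 with voom, 5 with scaling on the nuclear median and 5 without those 2 libraries. The log2 ratio of the mitochondrial share in pair 3 was 0.233 over the reads of the nuclear members and -0.083 without those 2 libraries. The replicate letters do not pair the samples: the correlation of same-lettered deviations was 0.12, 0.05 and 0.08 in pair 1, -0.02, 0.15 and 0.22 in pair 2 and 0.03, -0.12 and -0.09 in pair 3, and with the letter as a block the counts in pair 2 were again 5 risen and 4 fallen mitochondrial genes. Each library had 1526701 or more reads over the 13 mitochondrial genes, and NDUFA10, whose RPKM divides by 132953 bases, missed the minimum.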

Other observations

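The mitochondrial tRNA genes, which are not members, were low in 4N-2. The 8 tRNA genes of the light strand had 5.79 ± 0.240 reads per 1e6 reads in 4N-2 and 22.4 ± 0.441 in 2N-2 (SD, n = 3 each), without overlap. They had 17.8 ± 2.01 in 4N-1 and 20.02 ± 2.54 in 2N-1, and 23.6 ± 1.64 in 4N-3 and 28.97 ± 10.6 in 2N-3, and overlapped in both pairs. The 14 tRNA genes of the heavy strand had 29.5 ± 2.44 reads per 1e6 reads in 4N-2 and 54.2 ± 3.45 in 2N-2, also without overlap. They had 66.7 ± 6.33 in 4N-1 and 53.5 ± 7.71 in 2N-1, and 55.0 ± 2.04 in 4N-3 and 62.0 ± 16.2 in 2N-3, and overlapped in both pairs. A polyA library catches tRNA sequence mostly where it is still joined to an mRNA or carries a tail, and which of these was read was not tested.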
